A study of Rattus norvegicus with 8 samples.

Results

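Pdcd10, Fgf2 and Cdh2, a group of genes tied to vascular stability and cell adhesion, were read from 3 probes on arrays of rat penile tissue. The probe A_43_P19174 was taken for Pdcd10 by its name, and its accession, NM_001009542, belongs to that gene in RefSeq. The probes of Fgf2 (A_44_P212850, NM_019305) and Cdh2 (A_44_P349475, NM_031333) were found by their mRNA accessions. They are 3 of the 38 genes that could be named among 62 mRNA probes, on an array that otherwise carries 14145 probes for circular RNAs. Each has 1 probe, printed on 10 spots.

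The study has 4 samples labelled Control and 4 labelled Model, each of penile tissue and each on 1 array. The series title names erectile dysfunction caused by diabetes, and the labels describe a test in which rats that had no erection within 30 min of a dose of apomorphine (100 μg/kg), which acts on dopamine receptors to elicit erection, were assigned that condition. The labels do not say which group this test defined, how diabetes was induced, or the strain or age of the animals. Separate animals are not stated for the samples, so the p-values cover only the spread between samples, which can be technical.

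Before labelling, the RNA was digested with RNase R, an exonuclease that degrades linear RNA and spares closed circles. The 3 probes therefore read RNA left after that digestion, and the sources used here do not say whether it was linear or circular. The exons that the probes match are likewise not given there.

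Pdcd10 encodes a small adaptor protein, also called CCM3, of the cerebral cavernous malformation complex, which it forms with KRIT1 and CCM2. Loss of this complex in endothelial cells gives dilated, leaky vessels, and CCM3 also binds germinal centre kinases of the STE20 family. Fgf2 encodes basic fibroblast growth factor, a heparin-binding ligand of the FGF receptors that stimulates endothelial and smooth muscle cells. Cdh2 encodes N-cadherin, a calcium-dependent adhesion molecule that joins cells of the same kind and links endothelial cells to the mural cells around them. The erectile tissue of the penis is made largely of blood spaces lined by endothelium and set in smooth muscle.

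Pdcd10 was lower in Model than in Control. Levels below are processed signals on the log2 scale, relative to the 75th percentile of all probes on the same array, so a value of 0 is the signal of that percentile. Pdcd10 stood at -0.20 on Control 1, 0.46 on Control 2, 0.48 on Control 3 and -0.030 on Control 4. It stood at -2.07 on Model 1, -1.85 on Model 2, -1.57 on Model 3 and -1.51 on Model 4. All 4 Model arrays lay below all 4 Control arrays, with a gap of 1.31 between the nearest arrays of the groups.

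Pdcd10 averaged 0.18 ± 0.34 over the Control arrays and -1.75 ± 0.26 over the Model arrays (SD, n = 4 each). The difference was -1.93 on the log2 scale (SE 0.22, 95% confidence interval -2.42 to -1.43; limma adjusted p = 1.11e-04), a fall of 3.80-fold with an interval of 2.70-fold to 5.34-fold. The difference was larger than the spread between the arrays of either group. The interval covers the spread between arrays in this processing and not the choice of background correction. With another background correction followed by quantile normalization, described below, the change was -0.86, outside the interval. A call of either direction was common on these arrays. Of 13646 probes tested, 6434 changed (47.1%), and 3416 were lower in Model (25.0%) and 3018 higher (22.1%); in 22.4% of the probes the groups did not overlap with Model lower. With scanning run as a random block, 4056 probes changed (29.7%). In a bulk sample read after RNase R, fewer cells of a type, less RNA per cell and a larger loss in the digestion cannot be told apart.

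The split of all calls depended on the zero point of the arrays. Of the called probes 46.9% were higher in Model here, 68.3% with arrays centred on their medians, 66.0% with the zero point at the median of the mRNA panel, 38.4% with a percentile taken over the probes above background on all 8 arrays, and 29.1% without scaling. The median probe moved from -0.032 to 0.29, 0.24, -0.16 and -0.29, in that order. Pdcd10 was lower in Model under each of these zero points, with log2 changes of -1.61, -1.66, -2.05 and -2.19, in that order.

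**Figure D1:**
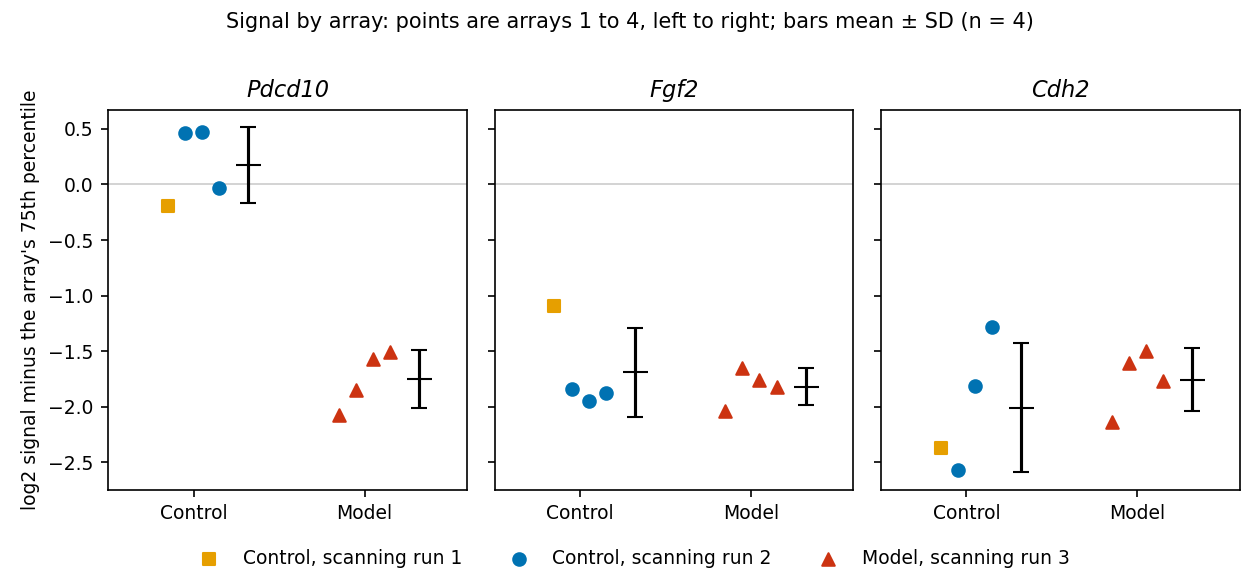
Log2 signal of Pdcd10, Fgf2 and Cdh2 relative to the 75th percentile of the array (vertical axis) in Control and Model. Each point is 1 array, with shape and colour for its scanning run, and bars are the mean ± SD (n = 4); the Pdcd10 values of Model, -2.07 to -1.51, lie below those of Control, -0.20 to 0.48, and the groups overlap for Fgf2 and Cdh2.

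The fall of Pdcd10 was also present in the signals before any scaling. The median processed signal of its 10 spots was 60.7, 66.0, 132 and 126 intensity units on Control 1 to 4, and 19.8, 17.7, 18.5 and 23.6 on Model 1 to 4. The dimmest of its 40 Control spots gave 53.6 and the brightest of its 40 Model spots 27.9, so no spot of a Model array reached a spot of a Control array. After scaling, the lowest Control spot lay at -0.38 and the highest Model spot at -1.24. All 80 spots were well above background and none was saturated. The median intensity of an array's Pdcd10 spots was 2.27 to 2.85 times the median of their local backgrounds in Model and 5.90 to 9.61 times in Control. Spots repeat the reading of an array, so their separation restates the gap between arrays. Lower signals in Model were common without scaling. Of 13646 probes, 2715 were then called lower and 1113 higher, with a median change of -0.29. The share of probes whose groups do not overlap without scaling was not computed.

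**Figure D2:**
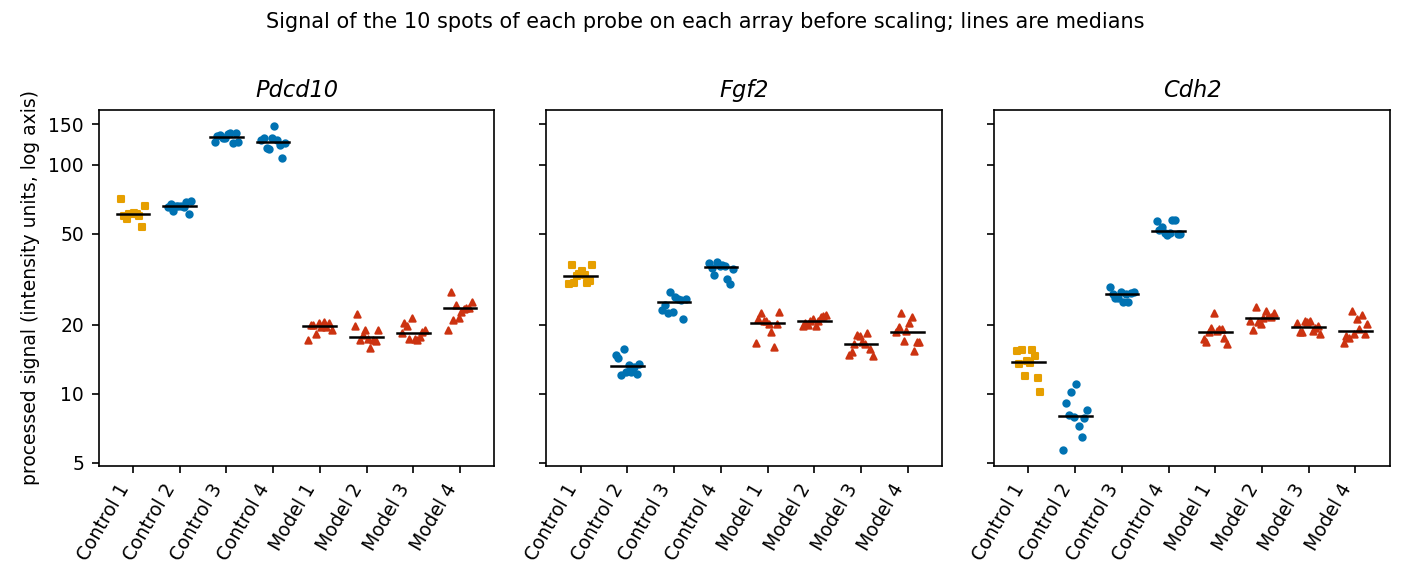
Processed signal of every spot (vertical axis, intensity units, log scale) of the probes of Pdcd10, Fgf2 and Cdh2 on the 8 arrays, before scaling. Each point is 1 of 10 spots, lines are medians and symbols mark the scanning run, as squares (Control, run 1), circles (Control, run 2) and triangles (Model, run 3); the Pdcd10 spots of all Model arrays are dimmer than those of all Control arrays, while the medians of Cdh2 span 7.99 to 51.2 in Control and 18.7 to 21.5 in Model.

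By the scan dates in their headers, the arrays fell into 3 scanning runs, numbered in the order of the samples. Control 1 was in run 1, Control 2 to 4 in run 2 and all Model arrays in run 3. No run held both groups, so scanning run and group cannot be told apart. For Pdcd10, Control 1 lay 0.50 below the mean of Control 2 to 4, which was 0.30 ± 0.29 (SD, n = 3). Against Control 1 alone the Pdcd10 change was -1.55 (limma adjusted p = 0.00844, with the lone Control array assumed to vary like the Model arrays), and against Control 2 to 4 it was -2.05 (limma adjusted p = 1.24e-04). With run as a random block it was -1.89 (SE 0.30; limma adjusted p = 0.00172), but the Model arrays are a run of their own in that fit too. With normexp background correction of the median intensities, which adds an offset, followed by quantile normalization, the change was -0.86 (limma adjusted p = 0.00230); with quantile normalization alone it was -1.82.

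Among the 61 mRNA probes tested, that of Pdcd10 had the lowest log2 change on this scale. It was also the lowest in 17 of 24 settings, this one included, and no further than place 5 from the lowest in the rest. Settings that shift all probes of an array alike, or alter only the error estimate, cannot change that order. Several of the 17 are of this kind. With quantile normalization its place was 4, and a probe of Ldha was lower, at -1.87 against -1.82. The next gene with a symbol, Slc28a2, had a change of -1.91 (SE 0.19), which is not separated from that of Pdcd10 (SE 0.22). The median change of the 61 probes was -0.31, and 28 of them passed the threshold (45.9%), 19 of them lower in Model (31.1%) and 9 higher (14.8%). In 24.6% of them the groups did not overlap with Model lower. Of all 13646 probes tested, 360 had a change as low as that of Pdcd10 or lower, or 2.64%.

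**Figure D3:**
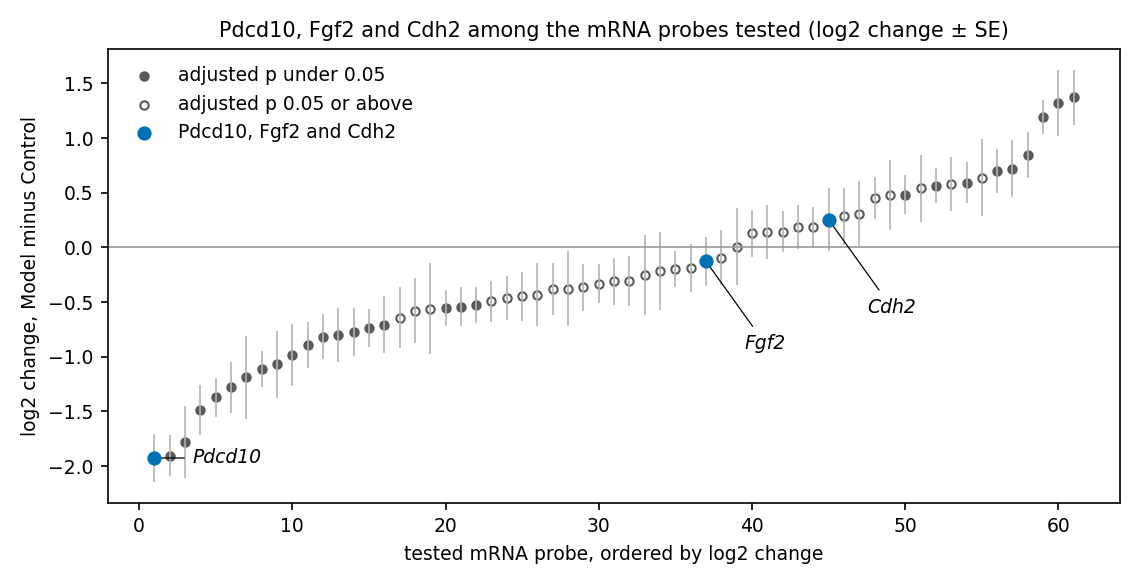
Log2 change from Control to Model (vertical axis, with SE bars) of the 61 mRNA probes tested, ordered by size; filled points passed a limma adjusted p of 0.05 and blue points are Pdcd10, Fgf2 and Cdh2. Pdcd10 lies at the low end at -1.93, and Fgf2 (-0.13) and Cdh2 (0.25) lie in the middle, at places 37 and 45 from the lowest.

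Fgf2, the growth factor of the group, did not pass the test. Its level was -1.09 on Control 1, -1.84 on Control 2, -1.95 on Control 3 and -1.87 on Control 4. On the Model arrays it was -2.04, -1.65, -1.76 and -1.82 for Model 1 to 4. Control 1 was the high array, and 3 of the 4 Model values lay within the range of the Control arrays while Model 1 lay below it.

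The means of Fgf2 were -1.69 ± 0.40 in Control and -1.82 ± 0.16 in Model (SD, n = 4 each). The difference was -0.13 (SE 0.22, 95% confidence interval -0.62 to 0.37; limma adjusted p = 0.661), so a fold between 0.650 and 1.29 of the Control level lies within the interval. Its sign was not settled: it was 0.19 with quantile normalization or median centring, and 0.071 (limma adjusted p = 0.754) without Control replicate 1. Against Control 1 alone, the array on which Fgf2 was high, it was -0.72.

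Control 1 stood apart for Fgf2. Control 2 to 4, scanned together, averaged -1.89 ± 0.057 (SD, n = 3), and Control 1, scanned apart, lay 0.79 above them. With 1 array in that run, run and sample cannot be told apart. Cdh2 gave no such gap, since Control 1 lay within its range over Control 2 to 4. The SD over the Fgf2 spots of an array was 0.058 to 0.18 (log2), and all 80 Fgf2 spots were well above background. The Fgf2 gene overlaps Nudt6 in the RefSeq table, a gene known to be transcribed from the opposite strand. The sources used here do not name the strand that the probe reads, so signal from Nudt6 cannot be told apart from signal of Fgf2. No other gene in that table overlaps Pdcd10 or Cdh2.

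Cdh2, the adhesion molecule, did not pass the test either and had the widest spread of the 3 in Control. Its level was -2.37 on Control 1, -2.57 on Control 2, -1.81 on Control 3 and -1.28 on Control 4. On Model 1 to 4 it was -2.14, -1.61, -1.50 and -1.77. All 4 Model values lay within the range of the Control arrays.

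The means of Cdh2 were -2.01 ± 0.58 in Control and -1.76 ± 0.28 in Model (SD, n = 4 each). The difference was 0.25 (SE 0.29, 95% confidence interval -0.38 to 0.89; limma adjusted p = 0.494), which allows a level in Model from 0.767 to 1.85 times that of Control. Of the other 60 mRNA probes tested, 47 had a lower SD over the Control arrays and 43 a lower SD over the Model arrays. The outcome depended on which Control arrays were used. With Control 1 and 2 alone, where Cdh2 was lowest among the Control arrays, the change was 0.72, a choice made after the files were seen that fixes a rise. Without Control replicate 2 it was 0.067 (limma adjusted p = 0.867). Without Control replicate 4 it was 0.50 (limma adjusted p = 0.112).

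On the Control arrays the relative level of Cdh2 went with the brightness of the array, given by its 75th percentile. On the log2 scale, that percentile was 5.58 on Control 2, 6.13 on Control 1, 6.56 on Control 3 and 6.99 on Control 4, the same order as that of the Cdh2 levels. On the Model arrays the percentile was 5.79, 6.03, 6.04 and 6.35 on Model 3, 2, 4 and 1, where Cdh2 ran in the opposite order, from -1.50 to -2.14. The relative level has this same percentile subtracted. Before that, log2 Pdcd10 had an SD of 0.16 over Model and 0.59 over Control, and log2 Fgf2 0.15 and 0.63. Log2 Cdh2 had 0.089 over Model and 1.18 over Control, so a smaller SD in Model was common to the 3 probes. The opposite order of Cdh2 in Model is therefore not separate from the subtraction. The part of array brightness in the results of the 3 genes was not tested. Before scaling, the median Cdh2 signal was 13.8, 7.99, 27.3 and 51.2 intensity units on Control 1 to 4 and 18.7, 21.5, 19.6 and 18.8 on Model 1 to 4. The 10 Cdh2 spots of Control 2, the dimmest array, had a coefficient of variation of 19.6%, against 4.72% to 13.3% on the other 7 arrays. All 80 Cdh2 spots were well above background.

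For each of the 3 genes the SD between the 4 arrays of a group was larger than the median SD between spots. For Fgf2 in Control this rested on Control 1, since its SD over Control 2 to 4 was 0.057. The median SD over the 10 spots of an array was 0.11 for Pdcd10, 0.12 for Fgf2 and 0.11 for Cdh2 on the log2 scale, which puts the error of an array's mean at about 0.034, 0.038 and 0.035. The SD between the arrays of a group was 0.16 to 0.58. Spots are repeats on an array and were not counted as replicates.

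The difference of log2 signals of 2 probes on the same array does not depend on the zero point subtracted from that array. Only its change between arrays was read, since levels of different probes are not comparable. Pdcd10 minus Fgf2 was 0.90, 2.30, 2.43 and 1.84 on Control 1 to 4 and -0.029, -0.20, 0.19 and 0.31 on Model 1 to 4. The groups did not overlap, and the mean of 1.87 ± 0.69 over Control compared with 0.068 ± 0.23 over Model (SD, n = 4). Control 1, where Fgf2 was high, was the Control array nearest to Model.

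Pdcd10 minus Cdh2 was 2.18, 3.03, 2.29 and 1.25 on Control 1 to 4 and 0.069, -0.24, -0.070 and 0.26 on Model 1 to 4. Again the groups did not overlap, with means of 2.19 ± 0.73 over Control and 0.0053 ± 0.21 over Model (SD, n = 4). Here Control 4, where Cdh2 was high, was nearest to Model. Pdcd10 thus fell relative to each of the other genes, with changes of -1.80 and -2.18 on the log2 scale. These were -2.01 and -2.40 with quantile normalization, and -0.89 and -0.997 with normexp followed by quantile normalization. Cdh2 minus Fgf2 overlapped between the groups, at -1.28 to 0.59 in Control and -0.099 to 0.26 in Model, with means of -0.32 ± 0.84 and 0.063 ± 0.15 (SD, n = 4). These differences share probes and arrays and are given as a description, with no test. The share of other probes that separate from Fgf2 or Cdh2 in this way was not computed. In their levels alone, 24.6% of the mRNA probes tested did not overlap with Model lower.

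**Figure D4:**
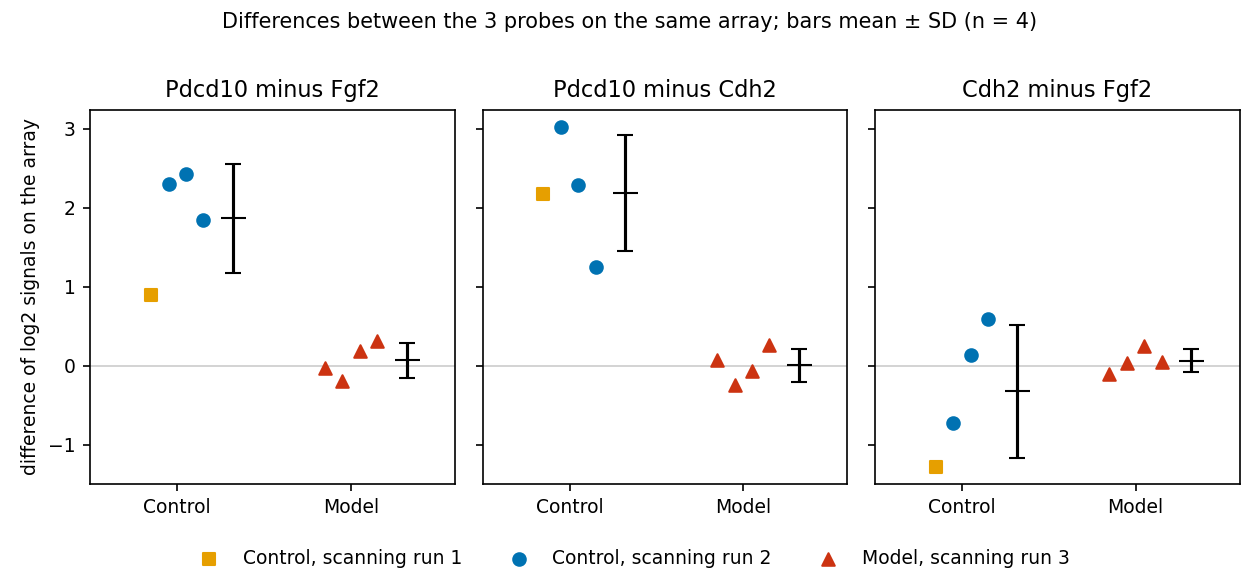
Difference of the log2 signals of 2 probes on the same array (vertical axis), for Pdcd10 minus Fgf2, Pdcd10 minus Cdh2 and Cdh2 minus Fgf2, in Control and Model. Points are arrays, marked by scanning run, and bars are the mean ± SD (n = 4); both differences with Pdcd10 are lower on all Model arrays than on any Control array, and Cdh2 minus Fgf2 overlaps.

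The panel genes most like each of the 3 were found by the root mean square difference of log2 values over the 8 arrays, each probe centred on its own mean, among 37 other probes with a symbol. Nearest to Pdcd10 were Slc28a2, a sodium-coupled nucleoside transporter, at 0.29, Mex3c, an RNA-binding ubiquitin ligase, at 0.38 and a probe of Ldha, which encodes the A subunit of lactate dehydrogenase, at 0.43, where the median over the 37 probes was 0.91. Since they were chosen for their likeness to Pdcd10 on the same arrays, their changes add no support to its fall. Patterns over the arrays that probes named here and below share with the 3 genes follow in part from that choice. The log2 changes were -1.91 (SE 0.19) for Slc28a2, -1.49 (SE 0.23) for Mex3c and -1.37 (SE 0.18) for that Ldha probe. The other Ldha probe changed by -0.74 (SE 0.17) and lay 0.68 from Pdcd10. Like Pdcd10, all 3 were lower on Control 1 than on any other Control array: Slc28a2 at -0.88 against -0.61 to -0.49, Mex3c at -1.85 against -1.54 to -1.52 and Ldha at 1.46 against 1.66 to 1.82.

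Nearest to Fgf2 were Napepld, a phospholipase that makes N-acylethanolamines, at 0.20, Actb, which encodes β-actin, at 0.26 and Enpp1, an ectoenzyme that generates pyrophosphate, at 0.26, against a median of 0.41. Napepld, like Fgf2, was highest among the Control arrays on Control 1, at -1.96 against -2.98 to -2.41. Its change was -0.31 (SE 0.23; limma adjusted p = 0.292), with a sign that turned to 0.014 with median centring. Enpp1 changed by -0.52 (SE 0.17; limma adjusted p = 0.0241), a call lost in 11 of 23 alternatives; 7 of those fits still gave 90% or more of the change. Actb, with a change of -0.19 (SE 0.16; limma adjusted p = 0.356), turned to 0.13 with median centring.

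Nearest to Cdh2 were Ptk2b, a tyrosine kinase related to focal adhesion kinase, at 0.18, Sdha, a subunit of mitochondrial complex II, at 0.24 and the ubiquitin ligase gene Trim2 at 0.32, against a median of 0.57. Ptk2b, chosen for its likeness over these arrays, ordered the Control arrays as Cdh2 did, at -2.51, -2.03, -1.80 and -1.32 on Control 2, 1, 3 and 4. Its change was 0.14 (SE 0.25; limma adjusted p = 0.670), and -0.060 without Control replicate 2. Sdha was at -0.82 and -0.81 on Control 1 and 2 and at 0.12 and 0.54 on Control 3 and 4. Its change was 0.54 (SE 0.31; limma adjusted p = 0.171). It passed in 5 of 23 alternatives, among them median centring (0.86, limma adjusted p = 0.0424), the zero point at the mRNA panel (0.81, limma adjusted p = 0.0403) and the omission of Control 4 (0.80, limma adjusted p = 0.0232). Trim2 changed by 0.48 (SE 0.18; limma adjusted p = 0.0469), a call lost in 12 of 23 alternatives; 7 of those fits still gave 90% or more of the change.

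None of the 3 genes was among the 3 probes nearest to another, as holds for most pairs when only 3 of 37 probes are named. Cdh2 was 23rd and Pdcd10 37th of the 37 probes in their distance from Fgf2, at 0.56 and 1.00. Fgf2 was 18th from Cdh2, at the same 0.56 against a median of 0.57, and Pdcd10 was also the farthest from Cdh2, at 1.19. From Pdcd10, Fgf2 was 24th and Cdh2 27th. These distances take in the change between the groups, so the far place of Pdcd10 is not separate from its fall.

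**Figure D5:**
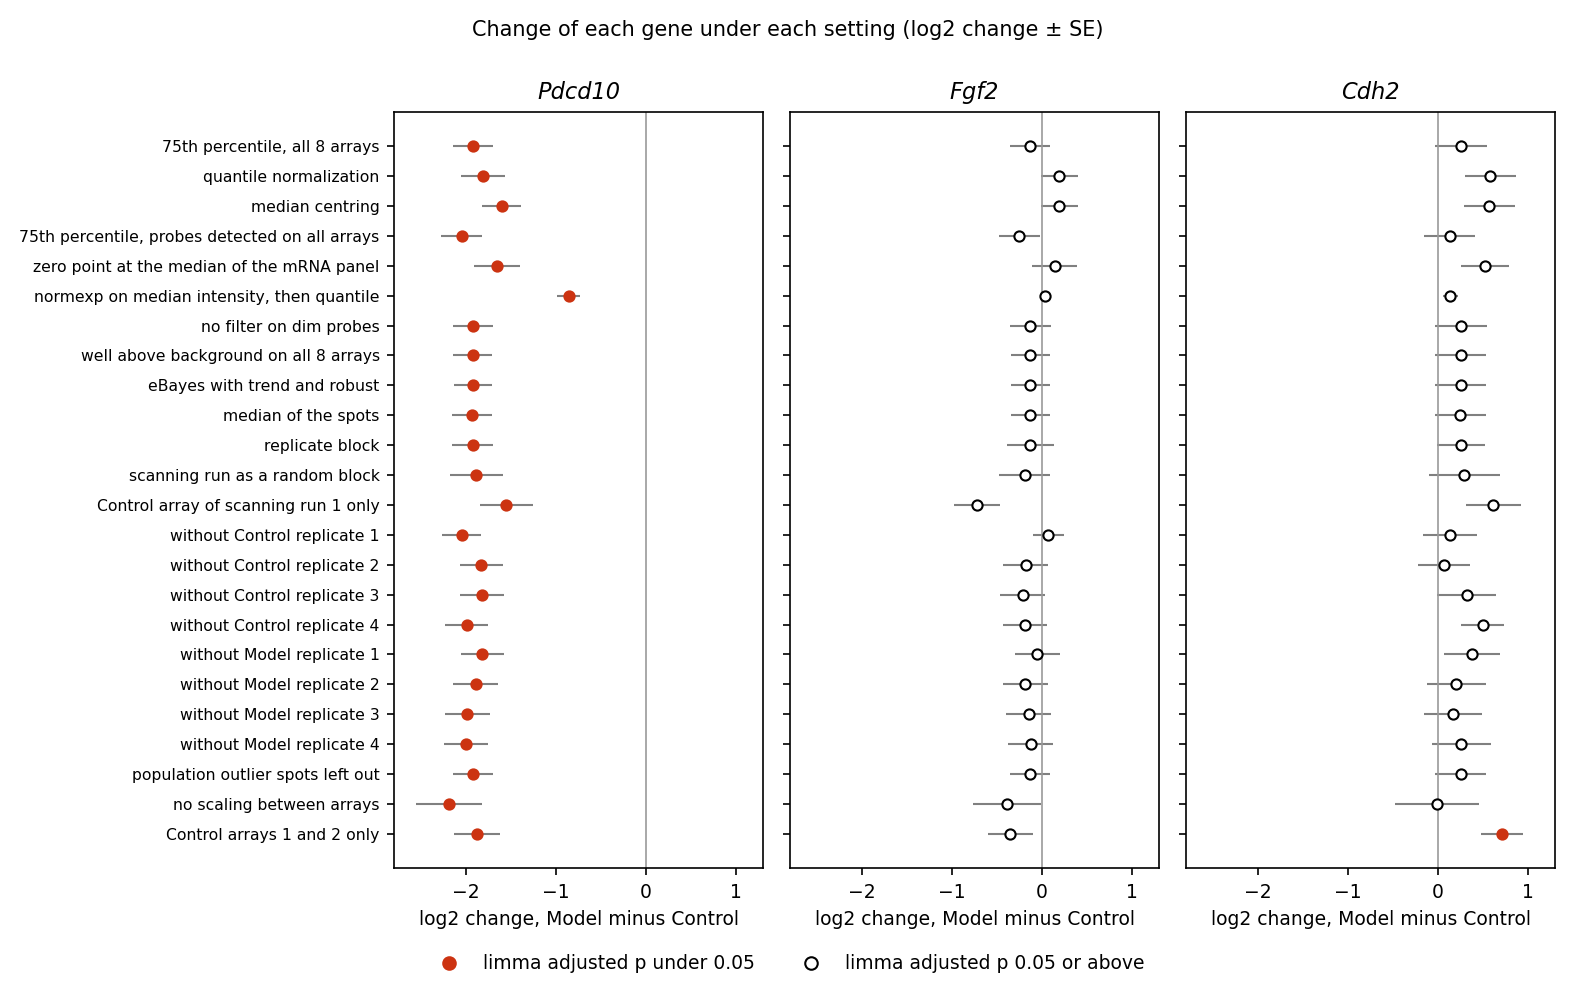
Log2 change of Pdcd10, Fgf2 and Cdh2 from Control to Model (horizontal axis, with SE bars) under the main setting, at the top, and 23 alternatives; filled points have a limma adjusted p under 0.05. Pdcd10 passed in every one shown, from -2.19 to -0.86, and Fgf2 in none; the filled point of Cdh2 uses the Control arrays on which it was lowest.

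The other genes of these pathways could not be followed. None of 40 listed genes of the cerebral cavernous malformation complex, FGF signalling, the cadherins and catenins and vessel growth was among the 38 genes matched to mRNA probes. The host genes of the circular RNA probes are not given in the sources used here. Of 24 listed markers of endothelium, smooth muscle, pericytes, fibroblasts, nerve, skeletal muscle, epithelium, immune cells and blood, 1 was matched, Map2 of neurons, so the tissue named in the labels was not checked against its defining markers. Map2 fell by 0.89 (SE 0.21; limma adjusted p = 0.00591), from -0.89 ± 0.20 in Control to -1.78 ± 0.33 in Model (SD, n = 4). It lost its call with the zero point at the mRNA panel, at -0.62 (SE 0.26), and against Control 1 alone, at -0.68 (SE 0.33), and its part in the result for Pdcd10 was not tested. The 75th percentile of the processed signal was 47.9 to 127 intensity units over the 8 arrays and the median local background 12.5 to 15.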

How the data were processed

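Per the labels' protocols, RNA of penile tissue from 8 rat samples was digested with RNase R, amplified with random primers, and Cy3-labelled; each Agilent array of 1 colour received 1 μg of cRNA for 17 h at 65 °C. Per the file headers, the authors read the arrays with Agilent Feature Extraction 11.0.1.1, and the deposited intensity values are processed signals, background-subtracted and spatially detrended but not scaled between arrays, beside median intensities of spots and local backgrounds. A table of log2 values that the authors deposited covers 14145 circRNA probes; none of the 3 probes described here is in it, and it gave no value.

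Spots with the flag for non-uniform pixels were dropped, the log2 signals of a probe's spots were averaged, and each array's 75th percentile over 14227 probes was subtracted. Probes well above background on at least 4 arrays were kept (for a probe with several spots, on at least 50% of its spots). The groups were compared by lmFit and eBayes (limma 3.58.1, R 4.3.3), and p-values were adjusted by Benjamini-Hochberg over the 13646 circRNA and mRNA probes tested at a threshold of 0.05. The code was tested on simulated data. Gene symbols were matched by accession without version to RefSeq's genes of the GRCr8 rat assembly; 39 of the 62 mRNA probes matched, for 38 genes.

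For each of the 3 genes, the 3 matched panel probes most like it were named, by the root mean square difference over the 8 arrays after each probe was centred on its own mean. The genes, the lists and the tests were chosen with earlier results of these data known. The omission of population outlier spots, the unscaled signals and the comparison with Control 1 and 2 alone were added after the files were seen. Precision is limited by the 4 arrays of each group.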

Additional observations from a re-analysis of the deposited data

Results flagged for a closer look

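In 3 of 24 sets of 4 arrays, 1 array lay far from the other 3, by the gap between it and its nearest neighbour as a share of the range. Chance gives about 1 in 20 for a single set. The sets come from the 3 genes and the probes chosen for likeness to them on the same arrays. They are therefore not independent, and no excess over chance can be read from the count. For Fgf2 this was Control 1, at -1.09, where the rest of Control lay between -1.95 and -1.84. For Mex3c it was also Control 1, at -1.85, with the rest of Control between -1.54 and -1.52. For Napepld it was Model 3, at -2.69, with the rest of Model between -2.88 and -2.86.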

How the results depend on the processing

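Pdcd10 kept its direction and its call in all 23 distinct alternatives (Control 2 to 4 alone is the same fit as leaving out Control 1), with log2 changes of -2.19 (no scaling between arrays) to -0.86 (normexp, then quantile) and limma adjusted p of 7.35e-05 to 0.00844; leaving out 1 array gave -2.05 to -1.82. Slc28a2, Mex3c and the Ldha probe nearest to Pdcd10 also kept direction and call in all 23. No alternative separates group from scanning run. The share of all probes that keep their call throughout was not computed. Fgf2 passed in none. Its sign turned with quantile normalization and median centring (0.19 each), the zero point at the mRNA panel (0.14), normexp followed by quantile (0.037) and Control 2 to 4 alone (0.071), and leaving out 1 array gave -0.22 to 0.071. Cdh2 was 0.72 with Control 1 and 2 alone, the arrays on which it was lowest in Control, turned to -0.0083 without scaling, and ranged from 0.067 to 0.50 when 1 array was left out. Of the genes named for their likeness, Napepld turned with median centring (0.014), Actb with median centring (0.13) and the zero point at the mRNA panel (0.075), and Ptk2b without scaling (-0.12) and without Control replicate 2 (-0.060; leaving out 1 array gave -0.060 to 0.34). The count of changed probes, 6434, was 4056 with run as a random block, 4161 against Control 1 alone and 3828 without scaling, and 5204 to 7000 when 1 array was left out. The cause was not tested in these cases. With the replicate number as a block the Pdcd10 change was -1.93 (limma adjusted p = 4.17e-04) and 5964 probes changed; the deviations of samples with the same number correlated at -0.18 to 0.19 across probes, so the numbers were not taken to pair the samples, and the block changed no call of the 3 genes. Dim signals limit all 3 probes: the median spot was 1.71 to 4.29 times its local background for Cdh2, 2.08 to 3.77 times for Fgf2 and 2.27 to 9.61 times for Pdcd10.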
